A study of Mus musculus with 9 samples.

Results

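Regulators of G protein signalling (RGS) were followed in 3T3-L1 pre-adipocytes, mouse fibroblasts that turn into fat cells under a hormone mixture, as 9 genes: Rgs2, Rgs3, Rgs4, Rgs5, Rgs10, Rgs12, Rgs16, Rgs17 and Rgs19. They are 9 of the 21 genes with an Rgs symbol on the array and of 22180 named genes in all, and were listed by symbol with earlier results of these data known. Each gene's probe set was chosen by measured values, as the one with the highest mean over the 9 arrays, which settled a choice for Rgs2 (mean log2 level 11.10 against 7.09) and for Rgs5 (5.46 against 5.13). The members held 11 probe sets in all.

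The series has 9 single-colour arrays of total RNA, 3 in each of 3 groups, and 1 array per sample. The vehicle group held cells growth-arrested for 48 h and given vehicle. The scrambled siRNA group had been transfected with 100 nmol of a control siRNA, arrested for 48 h after confluence, and given 0.5 mM IBMX and 1 µM dexamethasone (Dex) for 6 h. The CD24 siRNA group received the same arrest and hormones after 100 nmol of an siRNA against CD24, a glycosylated surface protein encoded by Cd24a. IBMX inhibits phosphodiesterases and so raises cAMP, and Dex is a synthetic glucocorticoid, so both comparisons with vehicle are of the pair of agents given together, in 1 cell line and at 1 time. The labels do not say whether vehicle cells received an siRNA, so hormone treatment and transfection cannot be told apart against vehicle. Nothing in them states that replicates came from separate cultures, so p-values here cover the spread of these samples only, which may be technical.

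RGS proteins bind the active, GTP-loaded alpha subunits of heterotrimeric G proteins and speed up the hydrolysis of GTP, which ends the signal that a receptor started. The R4 subfamily (here Rgs2, Rgs3, Rgs4, Rgs5 and Rgs16) is made mostly of small proteins with little beyond the RGS domain, the RZ subfamily includes Rgs17 and Rgs19, and the R12 subfamily includes Rgs10 and the large, multidomain Rgs12. Most members act on the Gi and Gq classes of alpha subunits, and Rgs2 has a preference for Gq. Transcription of Rgs2 is known to respond to cAMP in several cell types, and in adipocyte precursors G protein signals meet the cAMP arm of the hormone mixture used to start differentiation.

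The promoters of Rgs2, Rgs4 and Rgs16 are shown because these members differed from vehicle by 2-fold or more, of which Rgs2 passed the test described below in any form and Rgs4 and Rgs16 in its blocked form. Each is the 250 bases before the annotated transcription start in RefSeq (GRCm38.p6), written 5′ to 3′ on the strand of the gene. Capitals mark the core motif of the cAMP response element, TGACG on either strand (CGTCA when read on the other strand), and the TATA box letters TATAAA. The windows are chr1:144004150-144004399 on the minus strand for Rgs2, chr1:169747643-169747892 on the minus strand for Rgs4 and chr1:153740103-153740352 on the plus strand for Rgs16.
Rgs2: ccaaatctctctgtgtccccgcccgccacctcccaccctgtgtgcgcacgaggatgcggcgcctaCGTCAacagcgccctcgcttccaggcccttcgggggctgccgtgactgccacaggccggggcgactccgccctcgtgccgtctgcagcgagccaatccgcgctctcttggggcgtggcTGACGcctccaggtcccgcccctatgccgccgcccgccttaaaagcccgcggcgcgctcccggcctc
Rgs4: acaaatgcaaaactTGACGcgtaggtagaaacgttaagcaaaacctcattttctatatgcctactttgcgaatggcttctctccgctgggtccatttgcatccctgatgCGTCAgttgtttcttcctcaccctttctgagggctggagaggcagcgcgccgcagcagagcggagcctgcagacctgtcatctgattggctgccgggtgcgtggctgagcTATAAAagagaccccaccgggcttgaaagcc
Rgs16: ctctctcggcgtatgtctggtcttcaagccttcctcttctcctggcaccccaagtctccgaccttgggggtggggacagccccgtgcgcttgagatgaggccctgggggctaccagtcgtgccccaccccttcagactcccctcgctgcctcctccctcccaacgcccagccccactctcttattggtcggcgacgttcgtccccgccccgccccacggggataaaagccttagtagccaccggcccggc

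The Rgs2 window held 2 core motifs, which began 185 and 67 bases before the start, and no TATAAA. The Rgs4 window also held 2, at 236 and 141 bases, with TATAAA at 31 bases. The Rgs16 window held neither. Core motifs were present in 3 of 13 windows of the 9 members, besides Rgs2 and Rgs4 at a second start of Rgs12, and in 17.8% of 32851 windows of the same length over all genes. The full palindrome TGACGTCA was in none of the 13 member windows and in 1.55% of all windows, and the glucocorticoid response element, searched as AGAACA, 3 bases of any kind and TGTTCT, was in none of the member windows and in 0.00913% of all. Its single arm AGAACA was found in 4 of 13 (16.1% of all windows), TATAAA in 3 (12.4%) and the GC box letters GGGCGG in 9 (32.7%), each read on both strands. The Rgs2 window had 4 GC boxes and a GC content of 72.4%. A match to these letters is a description of the sequence and no evidence of binding, and the search did not separate overlapping matches.

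Of the 9 members, 8 passed the level filter, which required that the third highest of a gene's 9 values reach the median of the whole table (6.51 on the log2 scale); 12630 genes passed it. Rgs5 did not and was not tested. Changes were tested with limma over these 12630 genes, with Benjamini-Hochberg adjustment and a threshold of 0.05. A second fit added the replicate number of the titles as a block, since arrays of 1 number departed in common from their group means. It is given where it changes a call of a member, of Cd24a or of a gene in the lists below. For the genes most like Rgs2 and Rgs4 only the unblocked outcome is given. An exact permutation test of 3 arrays against 3 cannot give a two-sided p below 0.1, so none is reported.

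With IBMX/Dex, Rgs2 rose about 10-fold and the other tested members did not pass the unblocked test. In scrambled siRNA cells 1 of 8 tested members rose and 0 fell, where 6.94% of all tested genes were called (3.33% higher and 3.60% lower). With the replicate block 2 members rose (Rgs2 and Rgs10) and 2 fell (Rgs4 and Rgs16), where 23.3% of all genes were called (11.9% higher and 11.4% lower). The median difference of the 8 tested members was -0.04, beside 0.02 for all tested genes. Below 0 were 6 of the 8 differences and 5887 of those of all 12630 genes. Against vehicle, CD24 siRNA cells gave the same counts, 1 rose and 0 fell without the block and 2 and 2 with it, where 6.65% of all genes were called without the block (2.92% higher and 3.73% lower) and 22.4% with it (10.4% higher and 12.1% lower). The median of the members was -0.08 there, beside 0.02 for all genes, and 4 of the 8 differences were below 0 (5958 of all 12630 genes). A difference of at least 2-fold in either direction was found for 3 of the 8, Rgs2, Rgs4 and Rgs16, in both comparisons, and for 2.82% and 2.66% of all genes. Both comparisons share the vehicle arrays, so they are not independent of each other.

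**Figure D1:**
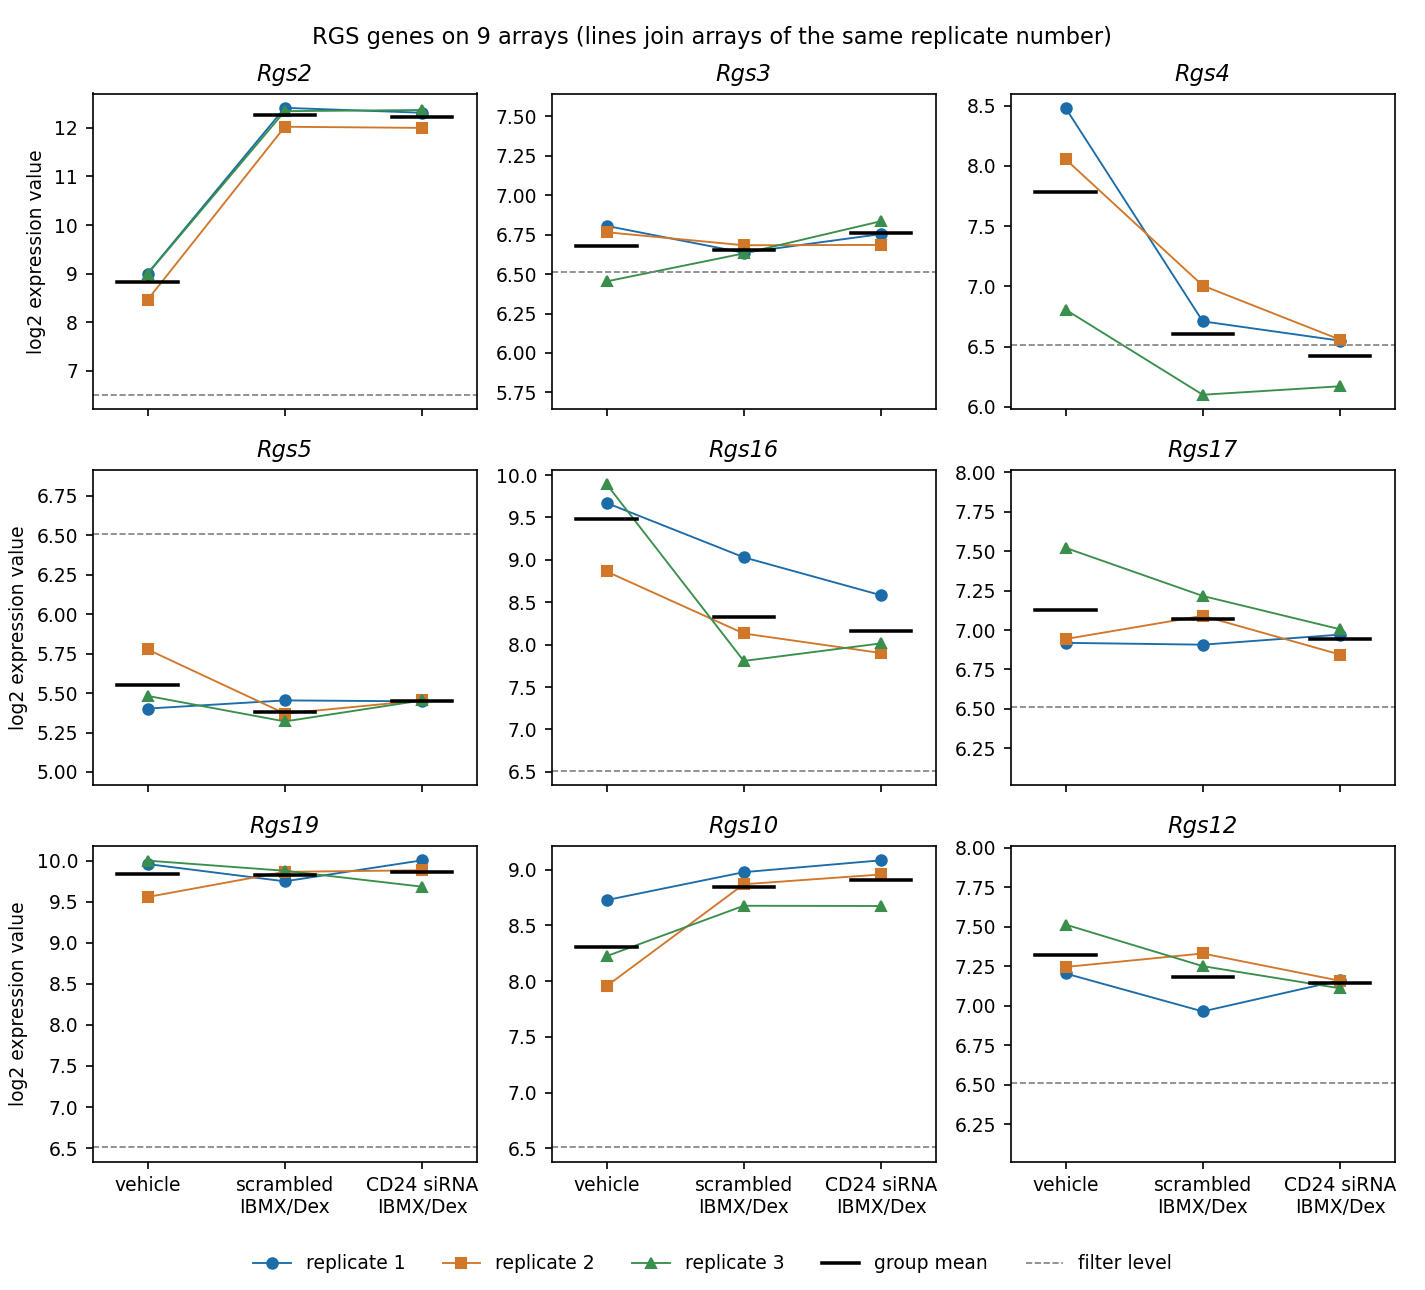
Log2 level of each of the 9 RGS genes (vertical axis, one panel per gene with its own range) on the 9 arrays, by group; points are single arrays, coloured lines join arrays of the same replicate number, black bars are group means and the dashed line is the filter level. Rgs2 lies between 8.46 and 9.0 on the vehicle arrays and between 12.00 and 12.41 on the 6 hormone-treated arrays, while Rgs5 stays between 5.32 and 5.78 throughout.

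Rgs2, which limits Gq signalling and has also been described to damp adenylyl cyclase, had log2 levels of 9.0, 8.46 and 8.99 on vehicle arrays 1 to 3. On the scrambled siRNA arrays they were 12.41, 12.02 and 12.34, and on the CD24 siRNA arrays 12.31, 12.00 and 12.37. The lowest treated array thus stood far above the highest vehicle array, and the second array was the lowest of its group each time. The same-numbered differences of scrambled siRNA from vehicle were 3.41, 3.56 and 3.35. The mean difference was 3.44 ± 0.18 (SE, n = 3 against 3), a 10.8-fold rise (limma adjusted p = 3.18e-05). Only 3 of 12630 tested genes, Rgs2 among them, rose at least as much (0.0238%). The rise in CD24 siRNA cells was 3.40, or 10.6-fold (limma adjusted p = 3.33e-05). With each array left out in turn the first difference ranged from 3.26 to 3.56 and the second from 3.23 to 3.52, and Rgs2 was called each time.

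A second probe set of Rgs2 was left out by the choice on the mean and was examined after seeing the data. Its levels were 5.36, 5.77 and 5.58 with vehicle, 8.97, 7.25 and 8.21 with scrambled siRNA and 8.14, 6.66 and 7.83 with CD24 siRNA. The treated arrays again lay above all vehicle arrays, with array 2 the lowest among the treated. Its rise in scrambled siRNA cells was 2.57 ± 0.46 (SE), or 5.95-fold, with a limma adjusted p of 0.0136 over 13310 probe sets, and in CD24 siRNA cells it was 1.97, or 3.92-fold (limma adjusted p = 0.0390). The vehicle levels lay under the filter level of 6.51, a range in which the array summary compresses differences. This probe set passed the filter only through treated arrays. Its entry to the test thus depended on the rise, and its p-values are no separate support.

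Rgs4, a small Gi and Gq regulator, read 8.48, 8.06 and 6.81 on the vehicle arrays. It read 6.71, 7.01 and 6.10 with scrambled siRNA and 6.55, 6.56 and 6.17 with CD24 siRNA. The third vehicle array lay below the second scrambled siRNA array, so those groups overlapped, whereas every CD24 siRNA array lay below every vehicle array. The same-numbered differences of scrambled siRNA from vehicle were -1.77, -1.05 and -0.71. Their mean was -1.18 ± 0.39 (SE), 2.26-fold lower, which did not pass without the block (limma adjusted p = 0.114) and passed with it (limma adjusted p = 0.00437). The difference in CD24 siRNA cells was -1.36, 2.56-fold lower, with limma adjusted p-values of 0.0768 without the block and 0.00230 with it. Without vehicle replicate 3 the unblocked fit called both falls, at -1.66 (limma adjusted p = 0.0184) and -1.84 (limma adjusted p = 0.0140), and the blocked calls were kept in 9 of 9 fits that each left out an array. Its treated levels, 6.10 to 7.01, lay around the filter level, where differences are compressed.

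Rgs16, an R4 member that is often induced by inflammatory stimuli, read 9.67, 8.86 and 9.89 with vehicle, 9.03, 8.13 and 7.81 with scrambled siRNA and 8.58, 7.90 and 8.02 with CD24 siRNA. The first scrambled siRNA array was above the second vehicle array, while the CD24 siRNA arrays all lay below the vehicle arrays. The differences of scrambled siRNA from vehicle were uneven over the numbers, -0.64, -0.73 and -2.09. The mean was -1.15 ± 0.36 (SE), 2.22-fold lower, with limma adjusted p-values of 0.0914 without the block and 0.00773 with it. With CD24 siRNA the mean was -1.31, 2.48-fold lower, with limma adjusted p-values of 0.0639 and 0.00441. Without scrambled siRNA replicate 1 the unblocked fit called the fall in scrambled siRNA cells (-1.51, limma adjusted p = 0.0431), and the blocked fit kept both calls in 9 of 9 fits with an array left out. The unblocked call in CD24 siRNA cells was made without vehicle replicate 2 (-1.62, limma adjusted p = 0.0418) and without scrambled siRNA replicate 1 (limma adjusted p = 0.0349).

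Non-overlap with vehicle, counted over the 8 tested members, was found in scrambled siRNA cells for 1 higher and 0 lower member, where 12.8% of all genes were higher and 12.4% lower by this rule. With CD24 siRNA it was found for 1 higher member and for 3 lower ones (Rgs4, Rgs16 and Rgs12), where the shares of all genes were 12.1% and 13.7%.

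**Figure D2:**
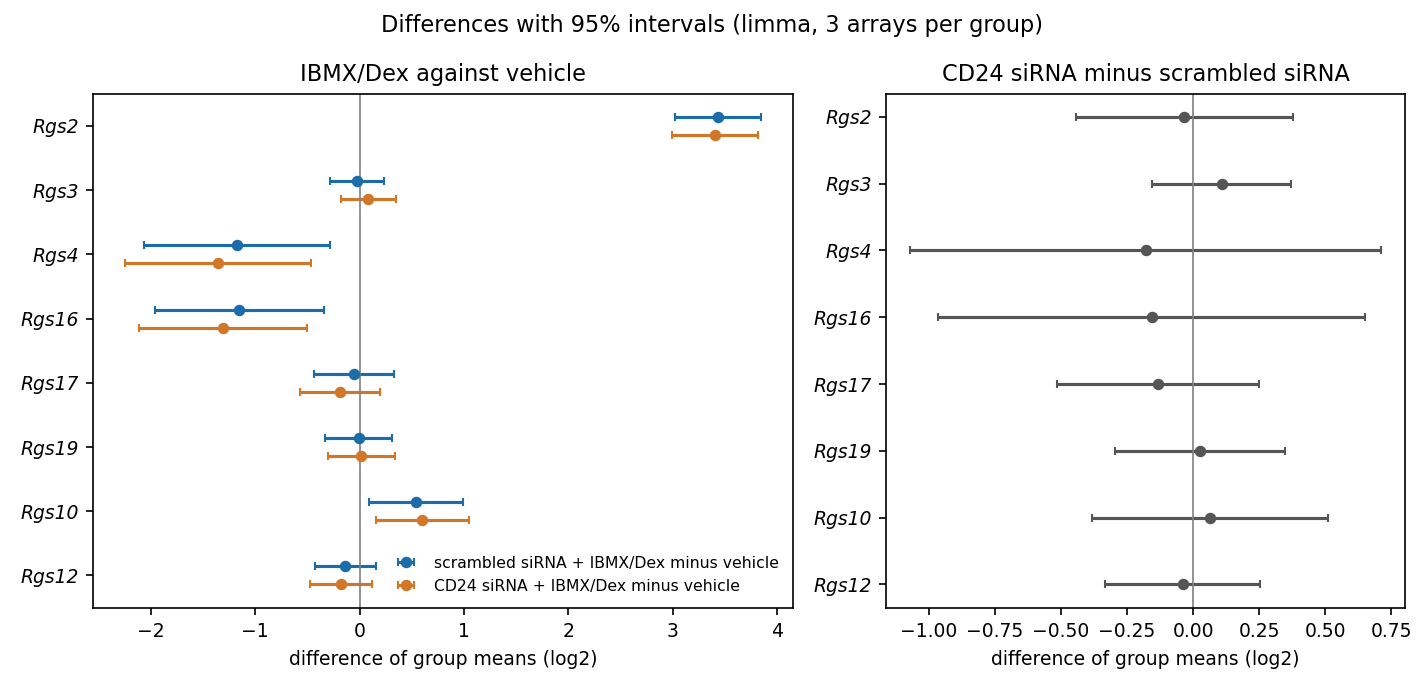
Log2 differences between group means (horizontal axis) for the 8 tested RGS genes; points are means and bars 95% intervals of the unblocked limma fit, with both comparisons against vehicle on the left and CD24 siRNA against scrambled siRNA on the right. The Rgs2 means of 3.44 and 3.40 stand apart from the other genes, which lie between -1.36 and 0.60 against vehicle, and the right panel holds all means between -0.18 and 0.11.

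The other members of the R4 subfamily stayed near their vehicle level or were too dim to test. Rgs3, whose long forms carry domains besides the RGS domain, read 6.81, 6.77 and 6.45 with vehicle, 6.64, 6.68 and 6.63 with scrambled siRNA and 6.75, 6.68 and 6.84 with CD24 siRNA. The scrambled siRNA arrays lay inside the vehicle range, with a difference of -0.03 (95% interval -0.29 to 0.24, limma adjusted p = 0.930). Rgs5, a gene best known from pericytes, read 5.40, 5.78 and 5.48 with vehicle, 5.45, 5.37 and 5.32 with scrambled siRNA and 5.45 on all CD24 siRNA arrays. Its second probe set lay between 4.91 and 5.44. The third highest value of Rgs5 was 5.45, below the filter level of 6.51, and the tested member nearest above that level was Rgs3, for which the third highest value was 6.77.

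The RZ members did not pass the test in either comparison with vehicle. Rgs19, also known as GAIP and a regulator of Gi and Gq classes, read 9.96, 9.56 and 10.00 with vehicle, 9.75, 9.86 and 9.88 with scrambled siRNA and 10.00, 9.88 and 9.68 with CD24 siRNA. All 3 groups overlapped, and the differences from vehicle were -0.01 (limma adjusted p = 0.979) and 0.02 (limma adjusted p = 0.968). Rgs17 read 6.92, 6.94 and 7.52 with vehicle, 6.91, 7.09 and 7.22 with scrambled siRNA and 6.97, 6.84 and 7.0 with CD24 siRNA. The third vehicle array was the highest of the 9, and the differences were -0.06 (limma adjusted p = 0.887) and -0.19 (limma adjusted p = 0.580).

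In the R12 subfamily Rgs10, a small regulator of Gi-class subunits that is also abundant in immune cells, read 8.73, 7.95 and 8.22 with vehicle. It read 8.98, 8.87 and 8.67 with scrambled siRNA and 9.08, 8.96 and 8.67 with CD24 siRNA. The first vehicle array was above the third array of both treated groups, so the groups overlapped, although the 3 same-numbered differences of scrambled siRNA from vehicle were all above 0 (0.25, 0.91 and 0.45). The mean difference was 0.54 ± 0.20 (SE), 1.45-fold higher, with limma adjusted p-values of 0.146 without the block and 0.0199 with it. In CD24 siRNA cells it was 0.60, 1.52-fold higher, with limma adjusted p-values of 0.110 and 0.0129. The blocked call was lost without scrambled siRNA replicate 2 or 3 (limma adjusted p up to 0.0998) and, in the other comparison, without CD24 siRNA replicate 2 (limma adjusted p = 0.0730); without vehicle replicate 2 the first difference was 0.35 with the block. Without vehicle replicate 1 the unblocked fit called both rises, with limma adjusted p-values of 0.0376 and 0.0297.

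Rgs12, whose PDZ and Ras-binding domains set it apart from small RGS proteins, read 7.20, 7.25 and 7.51 with vehicle, 6.96, 7.33 and 7.25 with scrambled siRNA and 7.16, 7.16 and 7.11 with CD24 siRNA. The CD24 siRNA arrays all lay just under the lowest vehicle array. The differences from vehicle were -0.14 (limma adjusted p = 0.583) and -0.18 (limma adjusted p = 0.476), and neither passed the test.

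CD24 siRNA and scrambled siRNA cells, both with IBMX/Dex, were compared to ask what CD24 knock-down changed. The target came first as a check: Cd24a read 11.19, 11.73 and 11.81 with scrambled siRNA and 10.15, 10.16 and 11.72 on the arrays labelled CD24 siRNA. Replicates 1 and 2 lay below all scrambled siRNA arrays, and the array labelled CD24 siRNA replicate 3 lay within their range. The difference of -0.90 did not pass (limma adjusted p = 1). On the vehicle arrays Cd24a read 8.88, 9.92 and 9.49, below every treated array of both groups. Scrambled siRNA cells were 2.15 above vehicle (limma adjusted p = 0.0205, kept in 6 of 9 fits with an array left out). CD24 siRNA cells were 1.24 above vehicle (limma adjusted p = 0.124 without the block and 0.0143 with it, kept in 6 of 9). A second probe set of Cd24a read 9.28, 8.72 and 9.25 with scrambled siRNA and 7.22, 6.68 and 9.08 with CD24 siRNA, again with replicate 3 within the scrambled siRNA range. Its difference was -1.42 (95% interval -2.58 to -0.27; limma unadjusted p = 0.0211, adjusted p = 1 over 13310 probe sets), with same-numbered differences of -2.05, -2.03 and -0.18. None of the 8 tested members was called, and neither was any of the 12630 genes with or without the block; unadjusted limma p-values under 0.05 were found for 30 genes (0.238%) without it and 219 (1.73%) with it.

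For Rgs2 the difference of CD24 siRNA from scrambled siRNA was -0.03, with a 95% interval of -0.44 to 0.38 and same-numbered differences of -0.10, -0.02 and 0.02. The interval was -1.07 to 0.71 around -0.18 for Rgs4, and -0.96 to 0.65 around -0.16 for Rgs16. These are wide, and they leave room for changes larger than those seen against vehicle in Rgs10. Their lower ends fall a little short of the differences of scrambled siRNA from vehicle, -1.18 for Rgs4 and -1.15 for Rgs16. Rgs10 itself differed by 0.06 (-0.38 to 0.51), Rgs19 by 0.03 (-0.30 to 0.35), Rgs12 by -0.04 (-0.33 to 0.25) and Rgs17 by -0.13 (-0.51 to 0.25). Rgs3 differed by 0.11 (-0.15 to 0.37), and its CD24 siRNA arrays lay narrowly above the scrambled siRNA arrays without overlap (both second arrays round to 6.68), as was the case for 0.879% of all genes in that direction; no member lay wholly below, where 1.54% of all genes did. The dimmer Rgs2 probe set gave -0.60 (-1.65 to 0.44), with differences of -0.83, -0.60 and -0.38 (limma unadjusted p = 0.224, adjusted p = 1).

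When the array labelled CD24 siRNA replicate 3 was left out, the differences from scrambled siRNA were -0.10 for Rgs2, 0.07 for Rgs3, -0.05 for Rgs4, 0.18 for Rgs10, -0.02 for Rgs12, -0.08 for Rgs16, -0.16 for Rgs17 and 0.11 for Rgs19. All 8 had a limma adjusted p of 1, and 0 genes were called. Against vehicle, without that array, Rgs2 differed by 3.33 and kept its call, and the differences were -1.23 for Rgs4, -1.23 for Rgs16 and 0.72 for Rgs10, with 321 genes called in place of 840.

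The spread within groups differed between members. The within-group SD was 0.583 for Rgs4 and 0.525 for Rgs16, which placed them above 96.5% and 95.5% of all tested genes. It was 0.244 for Rgs2, 0.271 for Rgs10 and 0.121 for Rgs3, beside 0.189 for the median gene. The replicate number held 94.4% of the within-group sum of squares of Rgs2 and 73.9% of that of Rgs4, against 61.3% for the median gene, and 15.9% and 15.5% for Rgs3 and Rgs19. Rgs4, Rgs16 and Rgs10, whose calls turn on the block, had the highest within-group SDs of the 8 tested members.

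**Figure D3:**
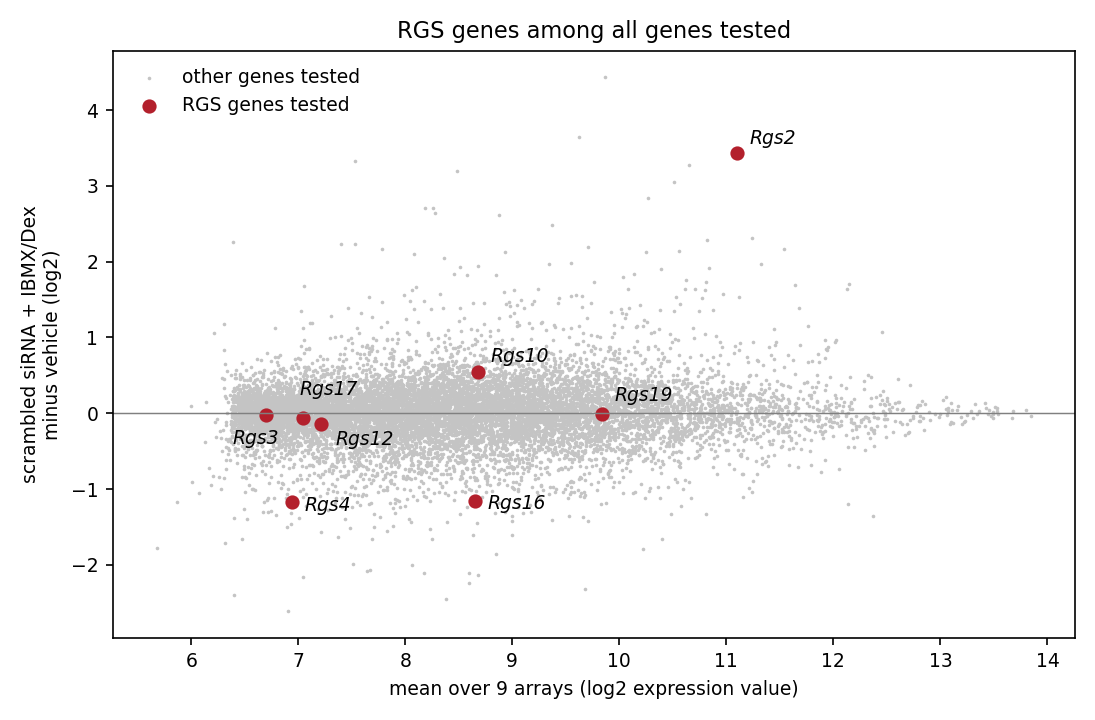
The 8 tested RGS genes among all 12630 tested genes, with the mean log2 level on the horizontal axis and the difference of scrambled siRNA with IBMX/Dex from vehicle on the vertical axis. Rgs2 lies at 3.44, with 2 other genes as high or higher, and Rgs4 and Rgs16 lie at -1.18 and -1.15.

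Of the 12 other RGS genes on the array, 10 lay below the filter level. Rgs8 and Rgs9, of the R4 and R7 subfamilies, were tested and not called, with differences of scrambled siRNA from vehicle of -0.03 and 0.00 and of CD24 siRNA from vehicle of 0.08 and -0.05. Several members lie on chromosome 1 in RefSeq (GRCm38.p6): Rgs2 at 143999338 to 144004149, Rgs16 at 153740353 to 153745468, and the neighbours Rgs5 (169655501 to 169695813) and Rgs4 (169741477 to 169747642). Of these, Rgs2 rose, while Rgs4 and Rgs16 fell with the block.

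The genes whose values over the 9 arrays were most like those of Rgs2 were Uap1 (r = 0.997), Pitpnc1 (0.997), Per1 (0.996) and Atp10d (0.996), out of 12629. Uap1 makes UDP-N-acetylglucosamine, Pitpnc1 is a phosphatidylinositol transfer protein, Per1 is a clock gene that glucocorticoids and cAMP induce, and Atp10d is annotated in RefSeq as a transcribed pseudogene. They rose 7.18-fold, 3.54-fold, 2.89-fold and 3.56-fold in scrambled siRNA cells. For Rgs4, the member with the most negative difference, they were Ebf1 (r = 0.981), Ghr (0.979), Septin11 (0.974) and Sbf2 (0.971), with differences of -0.71, -0.80, -0.48 and -0.47, none of which passed the unblocked test. Ebf1 is a transcription factor of adipocyte precursors and B cells, and Ghr is the growth hormone receptor. These correlations describe 9 arrays in 3 groups that differ in treatment, and the arrays share number and group.

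The partners of RGS proteins were taken as lists. None of 9 tested alpha subunits and none of 11 tested beta and gamma subunits was called without the block against vehicle. Of all tested genes, 6.94% were called in scrambled siRNA cells and 6.65% in CD24 siRNA cells without the block. The shares were 23.3% and 22.4% with it, and the blocked calls that follow stand beside these shares. With it, Gnao1, an alpha subunit of the Gi class, rose in scrambled siRNA cells (0.49, 1.40-fold, limma adjusted p = 0.0125) and in CD24 siRNA cells (0.63, limma adjusted p = 0.00404), and Gnai2 and Gna13 fell in CD24 siRNA cells by 0.35 and 0.31 (limma adjusted p = 0.0281 and 0.0414). Of the beta and gamma subunits, Gngt2 and Gng12 fell with the block in scrambled siRNA cells by 0.39 and 0.31 (limma adjusted p = 0.0157 and 0.0413), and Gnb1 and Gng12 in CD24 siRNA cells by 0.28 and 0.33 (limma adjusted p = 0.0490 and 0.0306). With an array left out, the blocked calls of Gngt2 and Gnao1 in scrambled siRNA cells were each kept in 7 of 9 fits. Those of Gng12 were kept in 1 of 9 in scrambled siRNA cells and in 3 of 9 in CD24 siRNA cells. In CD24 siRNA cells the calls of Gnai2, Gna13 and Gnb1 were kept in 4, 1 and 0 of 9, and that of Gnao1 in 9 of 9. The list medians were 0.02 and -0.01 for the alpha subunits and -0.20 and -0.28 for the beta and gamma subunits, beside 0.02 and 0.02 for all genes.

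Adaptors that hold RGS proteins at their targets (2 tested, Gnb5 and Gpr158), proteins with RGS homology domains such as Axin and GRK kinases (11 tested) and modulators of exchange or dissociation (7 tested) had no call in any comparison, with or without the block. The same held for the 5 tested adenylyl cyclases. Against vehicle, 6.94% and 6.65% of all genes were called without the block, and 23.3% and 22.4% with it. Among effectors, Plcb4, a phospholipase C activated by Gq, fell in CD24 siRNA cells by 0.67, or 1.60-fold (limma adjusted p = 0.0360), and Arrb1, the beta-arrestin that desensitises receptors, rose by 0.75, or 1.68-fold (limma adjusted p = 0.0406). In scrambled siRNA cells their differences were -0.53 and 0.65 (limma adjusted p = 0.0760 and 0.0643), which passed with the block (limma adjusted p = 0.0155 for both), and these blocked calls were kept in 5 of 9 fits with an array left out (limma adjusted p up to 0.0857 for Plcb4 and 0.0820 for Arrb1). The unblocked calls in CD24 siRNA cells were kept in 2 of 9 fits that each left out an array, for Plcb4 and for Arrb1. They were lost without vehicle replicate 2 or 3, scrambled siRNA replicate 2 or 3, or any CD24 siRNA array. The blocked calls in CD24 siRNA cells (limma adjusted p = 0.00563 and 0.00878) were kept in 9 of 9 such fits. Plcb1 differed by 0.41 in scrambled siRNA cells (limma adjusted p = 0.0944; 0.0371 with the block, a call kept in 4 of 9 fits with an array left out) and by 0.34 in CD24 siRNA cells (limma adjusted p = 0.157; 0.0730 with the block). Arrb2 differed by -0.38 in scrambled siRNA cells (limma adjusted p = 0.140 without the block and 0.0627 with it). In CD24 siRNA cells Arrb2 differed by -0.31 (limma adjusted p = 0.223 and 0.118), and it was called in neither comparison. None of these genes was called between CD24 siRNA and scrambled siRNA.

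**Figure D4:**
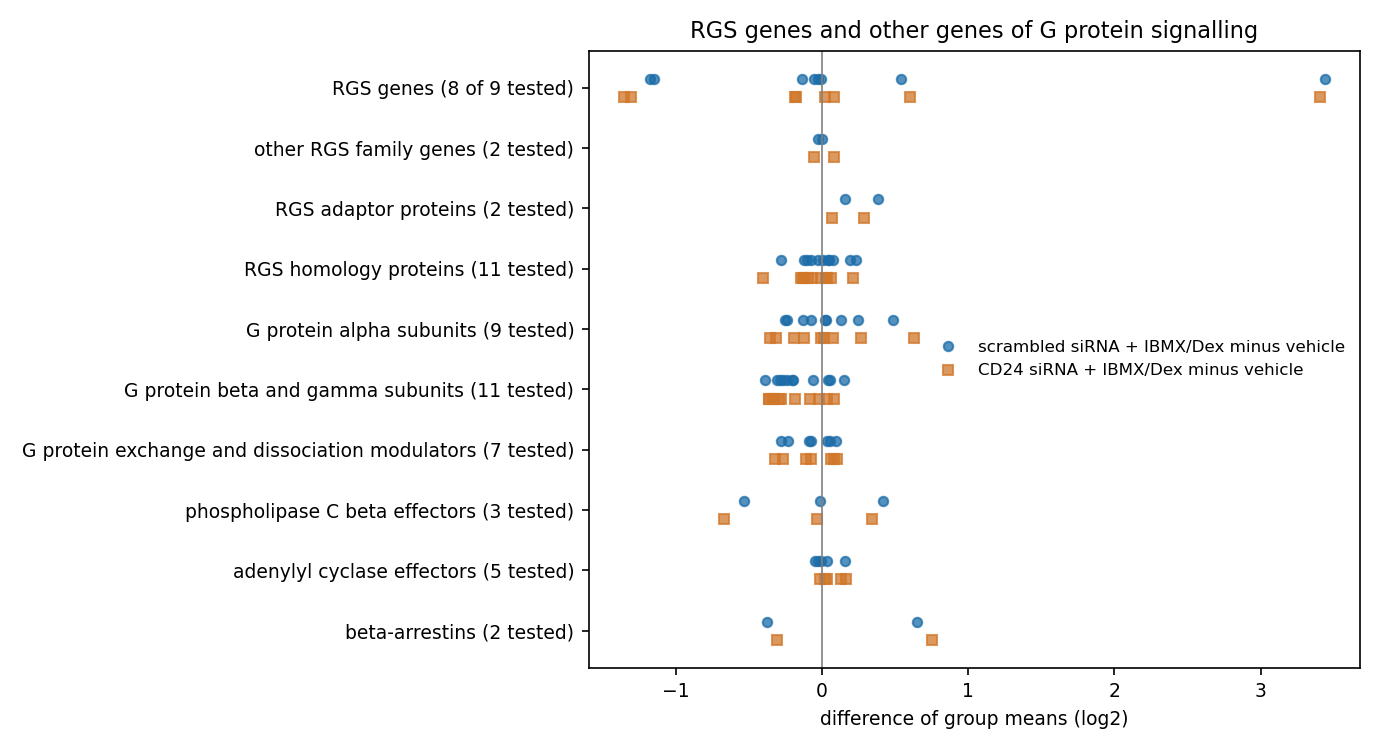
Log2 differences from vehicle for the tested genes of the G protein lists, in scrambled siRNA and CD24 siRNA cells with IBMX/Dex, by list (rows), with 1 point per gene (circles for scrambled siRNA, squares for CD24 siRNA). Rgs2 stands above all listed genes, at 3.44 and 3.40, and Plcb4 and Arrb1 lie at -0.67 and 0.75 in CD24 siRNA cells.

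All 8 genes listed as a check of the hormone treatment, targets of cAMP or of the glucocorticoid receptor, rose in both comparisons with vehicle. Of all tested genes, 3.33% and 2.92% were called higher in scrambled siRNA and CD24 siRNA cells. The list was drawn up with earlier results of these data known, so the count is no independent check. The rises ran from 1.44-fold for Crem to 9.71-fold for Nr4a1 in scrambled siRNA cells. Vehicle levels of Crem, 6.51, 6.43 and 6.53, lay around the filter level, where differences are compressed. On the vehicle arrays alone Crem would not have passed the filter. Unblocked calls of Tsc22d3 were kept in 3 of 9 fits with an array left out, in both comparisons. Those of Crem were kept in 8 of 9, and the other 6 genes kept theirs. The blocked calls of all 8 genes were kept in 9 of 9 such fits. The array medians lay between 6.47 and 6.56, and arrays of a group correlated at r of 0.963 to 0.990. Of the pre-adipocyte markers 7 of 7 named were above the filter. Their mean log2 level was 10.7 to 10.8 on vehicle arrays and 10.2 to 10.3 on both treated groups. In scrambled siRNA cells Pdgfra fell by 1.04 and Pdgfrb by 1.66. The other 5 markers were not called there without the block, and 1 of the 7 differences was above 0. With the block Col1a1 and Col3a1 also fell there, with differences of -0.45 and -0.51 (limma adjusted p = 0.0132 and 0.0120). These calls were kept in 7 and 8 of 9 fits with an array left out. Of all genes, 3.60% were called lower there without the block and 11.4% with it. In CD24 siRNA cells Col3a1 differed by -0.70 (limma adjusted p = 0.0539 without the block and 0.00285 with it, kept in 9 of 9). The unblocked call of Pdgfra was kept in 5 of 9 fits with an array left out, and its blocked call in 9 of 9. The part of these shifts in the members' results was not tested. Adipoq, Plin1, Cidec, Lep and Slc2a4, markers of mature adipocytes, were below the filter level on all 9 arrays, as were the pericyte genes Kcnj8 and Abcc9, the macrophage genes Ptprc, Adgre1, Itgam and Fcgr1 and all 6 lymphocyte markers. Mean macrophage marker levels were 6.49 to 6.59 with vehicle, 6.56 to 6.89 with scrambled siRNA and 6.66 to 6.83 with CD24 siRNA. The 3 tested macrophage markers, Cd14, Cd68 and Csf1r, read higher than vehicle on average in both treated groups, as Rgs10 did; none was called without the block, and with it Cd14 rose in scrambled siRNA cells (0.54, limma adjusted p = 0.0230, kept in 5 of 9 fits with an array left out). Their part in the Rgs10 result was not tested. Pericyte and smooth muscle markers lay at 7.54 to 7.68, 7.53 to 7.83 and 7.56 to 7.72, while Mcam rose by 1.20 and Des fell by 0.70 in scrambled siRNA cells. Their unblocked calls were kept in 5 and 7 of 9 fits with an array left out, and their blocked calls in 9 of 9. Endothelial markers were above the filter for 1 of 8. In bulk RNA, fewer cells of a type and less RNA per cell cannot be told apart.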

How the data were processed

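The deposited log2 values were made by the authors with RMA, using the oligo package, per the submitters' processing notes, with no version in the sources used here. RMA gives the arrays nearly the same distribution and compresses differences of dim probe sets. The table holds 41345 probe sets, of which 23521 had 1 gene symbol, 1814 several and 16010 none in the platform annotation; only the first kind was used. The members and lists were chosen with earlier results of these data known, and every member is named. Of other listed genes, those with an adjusted p under 0.05, or else up to 3 with the smallest p, could be named; the 4 genes of highest Pearson r were named for Rgs2 and Rgs4. Promoters were to be shown for called members; Rgs4 and Rgs16 were added as the other members with a difference of at least 2-fold and a blocked call, and that of Rgs10, which also had blocked calls, is not printed because its window lies inside the annotated gene. Differences were fitted with limma 3.58.1 (R 4.3.3; lmFit, eBayes, 1 mean per group, all 9 arrays), two-sided. Deviations from group means correlated at 0.377 to 0.732 between arrays of the same number in the titles and at -0.589 to 0.116 between other numbers, so the number was taken to pair the arrays and was fitted as a block in a second fit; values and intervals come from the unblocked fit unless the block is named. The number of arrays limits the precision: the 95% interval of the median gene spanned 0.34 either way (1.27-fold). Alternatives were the block, each array left out (with the block too, added after seeing the data), no filter or one at the 75th percentile, quantile normalization, median centring, averaging the probe sets of each gene, an intensity trend and fits of only the groups compared. Fits were tested on simulated data. Promoter sequences came from RefSeq (GRCm38.p6).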

Additional observations from a re-analysis of the deposited data

How the results depend on the processing

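With the replicate block, 2942 genes were called in scrambled siRNA cells against vehicle and 2831 in CD24 siRNA cells, in place of 876 and 840; with only the 2 groups compared, 389 and 461 were called. With single arrays left out, blocked fits included, these counts ranged from 313 to 2924 and from 321 to 2647. Members called were 4 and 4 with the block, 2 in CD24 siRNA cells with a filter at the 75th percentile (Rgs16, limma adjusted p = 0.0496, besides Rgs2), and 1 to 4 in both comparisons with an array left out. The sign of these uncalled differences turned with an array left out. Against vehicle in scrambled siRNA cells the ranges were -0.15 to 0.045 for Rgs3, -0.16 to 0.14 for Rgs17 and -0.17 to 0.10 for Rgs19. In CD24 siRNA cells they were -0.042 to 0.15, -0.30 to 0.0092 and -0.14 to 0.16. Between CD24 siRNA and scrambled siRNA they were -0.15 to 0.080 for Rgs2, -0.43 to 0.021 for Rgs4, -0.042 to 0.18 for Rgs10, -0.15 to 0.051 for Rgs12, -0.48 to 0.20 for Rgs16 and -0.080 to 0.17 for Rgs19. No difference turned its sign under another alternative, and the block changed no call of a member other than those of Rgs4, Rgs10 and Rgs16. The cause of these shifts was not tested.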
